A study of Homo sapiens with 12 samples.

Results

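The kinesin motor genes were taken as the rows of the deposited gene table whose symbol was KIF followed by a number and an optional letter A, B or C (KIF21A was left out), together with KIFC1, KIFC2 and KIFC3. The rule found 41 of 63086 genes, of which 12 encode mitotic kinesins and 29 encode other kinesins, most of them motors for cargo transport or cilia. Of the 41, 37 reached the minimum mean normalised count of 10 over the 12 libraries and were tested, namely all 12 mitotic kinesins and 25 others. The 4 below it were KIF19, KIF4B, KIF2B and KIF6. KIF19 had 14 reads and KIF4B 82 reads over all libraries. KIF2B and KIF6 had 0 reads in every library, which allows up to 3 reads per library by counting error alone.

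RNA was sequenced from 4 lines of MIA PaCa-2, a human pancreatic carcinoma cell line, with 3 libraries per line that the sample titles number as biological replicates. The WT line was not manipulated. CRISPR Control was 1 line that went through CRISPR-Cas9 editing and carried only a silent point mutation, and TIMP1 KO 1 and TIMP1 KO 2 were each 1 clone edited in exon 4 of TIMP1, which encodes tissue inhibitor of metalloproteinases. The labels give no treatment and the same growth medium for all 12 libraries, but no date or batch of culture. WT and CRISPR Control are called TIMP-1-competent and KO 1 and KO 2 TIMP-1-deficient. Because each line other than WT was a single line or clone, what is particular to a clone and what follows the edit cannot be told apart, and p-values measure the spread between libraries of a line.

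Kinesins are motor proteins that use ATP to move along microtubules, or in the case of the kinesin-13 family to take their ends apart. In dividing cells a set of them builds the bipolar spindle, attaches and aligns chromosomes, and organizes the midzone where the daughter cells are cut apart. Their genes belong to the G2/M program, which is transcribed late in the cell cycle and is silent in resting cells, whereas most transport kinesins, which carry mitochondria, vesicles and endosomes toward the cell periphery, are transcribed throughout the cycle. Many G2/M promoters hold a CHR element (cell cycle genes homology region, TTTGAA or TTCGAA), which binds the DREAM and MuvB complexes, and CCAAT boxes, which bind NF-Y.

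To show what the mitotic promoters share, the 250 bases before the start of each gene were searched on both strands in the RefSeq promoter table (GRCh38.p14). All 12 mitotic kinesins and 21 of the 29 other kinesins had an entry. For a kinesin with several entries only the first was used, whereas the share of all promoters counts every entry. A CHR element lay in 6 of 12 mitotic promoters (50%), in 1 of 21 other kinesin promoters (4.76%) and in 14.3% of the 35116 promoters of the table. A CCAAT box lay in 10 of 12 (83.3%), 7 of 21 (33.3%) and 32% of these promoters, respectively. Both lay in 5 mitotic promoters (41.7%), in 1 other kinesin promoter (KIF5B, 4.76%) and in 5.05% of all promoters. The 90 bases before the start are printed for 5 mitotic kinesins, 3 that hold both motifs and 2 that hold a pair of CCAAT boxes. Capitals mark the motifs. On the opposite strand CCAAT reads ATTGG and TTTGAA reads TTCAAA, and each window is written 5′ to 3′ on the strand of its gene, with the last base next to the start.
KIF11 (chr10:92593040-92593129, plus strand): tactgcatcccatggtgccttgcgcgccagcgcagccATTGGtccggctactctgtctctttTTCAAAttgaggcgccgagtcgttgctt
KIF4A (chrX:70290014-70290103, plus strand): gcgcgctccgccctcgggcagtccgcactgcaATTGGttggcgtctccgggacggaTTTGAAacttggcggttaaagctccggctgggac
KIF18A (chr11:28108157-28108246, minus strand): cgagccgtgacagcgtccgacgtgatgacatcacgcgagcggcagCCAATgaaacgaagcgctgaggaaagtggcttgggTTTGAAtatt
KIF18B (chr17:44947774-44947863, minus strand): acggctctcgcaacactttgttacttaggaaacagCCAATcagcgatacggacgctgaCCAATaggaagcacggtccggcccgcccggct
KIFC1 (chr6:33391733-33391822, plus strand): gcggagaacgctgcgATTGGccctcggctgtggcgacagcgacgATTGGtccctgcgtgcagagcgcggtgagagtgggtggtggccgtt

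The first base of the CHR element lay 28 bases before the start in KIF11, 34 in KIF4A and 10 in KIF18A, and the CCAAT box lay upstream of it in each of the 3. In KIF18B the CCAAT boxes lay 55 and 32 bases before the start, and in KIFC1 75 and 46. KIF22, KIF23 and KIF15 also held a CHR element, KIF14, KIF20A and KIF20B held CCAAT boxes only, and KIF2C held neither. These matches describe letters in a window and were not tested against binding or against the expression values.

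The libraries held from 26908701 to 36093563 reads in genes, and the values compared here are normalised counts, that is, the reads of a gene after scaling by the size factor of its library. Across genes, replicates of a line gave a correlation of 0.990 to 0.993, and each pair differed by more than counting noise. The excess was largest in CRISPR Control, whose pairs had a mean chi-square per gene of 18.0 to 29.9. Pairs of the other lines had 4.58 to 16.6. The fit shared its spread per gene over all lines. The labelled cell type was checked on KRT8, KRT18 and VIM, which were abundant in every library, and on CDKN2A, deleted in this line, which had 0 reads in all. Of the markers of other cell types, PTPRC reached at most 9 reads, CD3E 2, CD68 13, PECAM1 17 and COL4A3 30 in any library. TIMP1 itself had a mean of 3553 in WT, and of 2690 in CRISPR Control, against 1600 (KO 1) and 1161 (KO 2), so the knockout libraries also held less TIMP1 RNA.

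As a sum, the mitotic kinesins stood lower in both knockout clones than in WT, moderately in KO 1 and strongly in KO 2. Summed over the 12 genes, the 3 libraries of WT held 46003, 47346 and 46350 normalised counts and those of CRISPR Control 46006, 45270 and 43706. The sum was 38142, 38587 and 39194 in KO 1, and 24342, 22968 and 22666 in KO 2. All KO 2 sums thus lay below all KO 1 sums, which lay below all sums of the competent lines. Relative to the WT mean, KO 1 held 83.0%, KO 2 50.1% and CRISPR Control 96.6% of the mitotic kinesin transcripts. In bulk RNA, fewer dividing cells and less of these transcripts per dividing cell cannot be told apart.

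The sum over the 29 other kinesins moved little. WT held 65999 ± 979, CRISPR Control 66846 ± 5767, KO 1 62112 ± 1525 and KO 2 61544 ± 387 normalised counts (mean ± SD, n = 3). CRISPR Control thus reached 101%, KO 1 94.1% and KO 2 93.2% of the WT mean. The mitotic genes therefore gave 41.4% ± 0.559 of all kinesin counts in WT and 27.5% ± 0.886 in KO 2 (SD, n = 3). The sum of the other kinesins rested much on a few abundant genes and held changes in both directions. KIF1A averaged 16701 in WT and 19802 in KO 2, and KIF1C averaged 8669 and 5456.

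**Figure D1:**
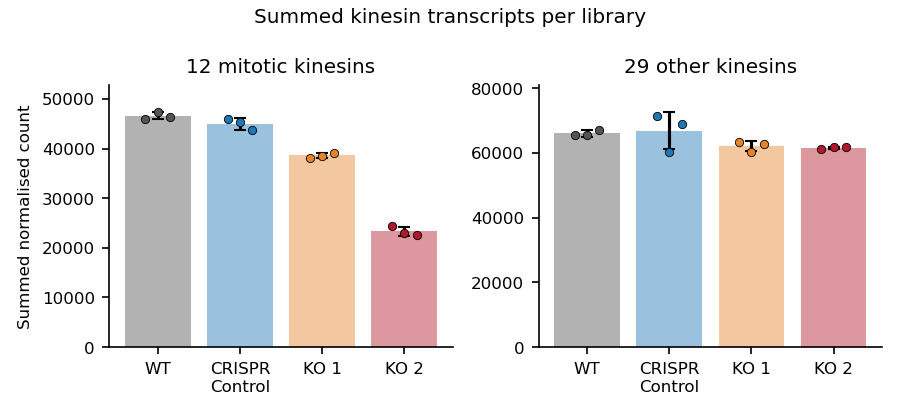
Summed normalised counts (y axes, from 0) of the 12 mitotic kinesins (left) and the 29 other kinesins (right) in the 4 lines (x axes); bars are means of 3 libraries, error bars are SD and points are libraries. The mitotic sum fell from a mean of 46566 in WT to 23325 in KO 2, and the other sum lay between 61544 and 66846.

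By limma on log2(normalised count + 1) over 15987 genes, with p-values adjusted over all of them and a threshold of 0.05, all 12 mitotic kinesins were lower in KO 2 than in WT, where 27.9% of all tested genes were lower and 27.1% higher. Their median log2 fold change was -1.01 and that of all genes -0.01. Against the same WT libraries, KO 1 was lower in 8 of 12 and higher in 0, beside 17.5% of all genes lower and 18.0% higher, with a median of -0.29. The edited line without a knockout, CRISPR Control, differed from WT in 3 of the 12 (KIFC1 and KIF18A lower, KIF23 higher), beside 26.3% of all genes lower and 27.2% higher, with a median of -0.11. Both clones were compared with the same WT libraries, so their shared direction is not independent evidence.

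Against CRISPR Control, 11 mitotic kinesins were lower in KO 2 and 0 higher, beside 34.4% and 33.3% of all genes, with a median of -0.90. In KO 1, 6 were lower and 2 (KIF18A and KIF20B) higher than in CRISPR Control, beside 31.3% and 31.7% of all genes, with a median of -0.22. The clones also differed from each other. All 12 were lower in KO 2 than in KO 1, beside 20.1% of all genes lower and 18.1% higher, with a median of -0.75, and in all 12 the 3 KO 2 libraries lay below the 3 KO 1 libraries. Over the mean of the deficient against the mean of the competent lines, 10 were lower and 1 higher, beside 33.0% and 32.9% of all genes. All 6 deficient libraries lay below all 6 competent libraries for KIF2C, KIF4A, KIF15, KIF18B, KIF22 and KIF23, that is 6 of 12, beside 12.4% of all genes. They lay above for 0 of 12, beside 12.3%.

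**Figure D2:**
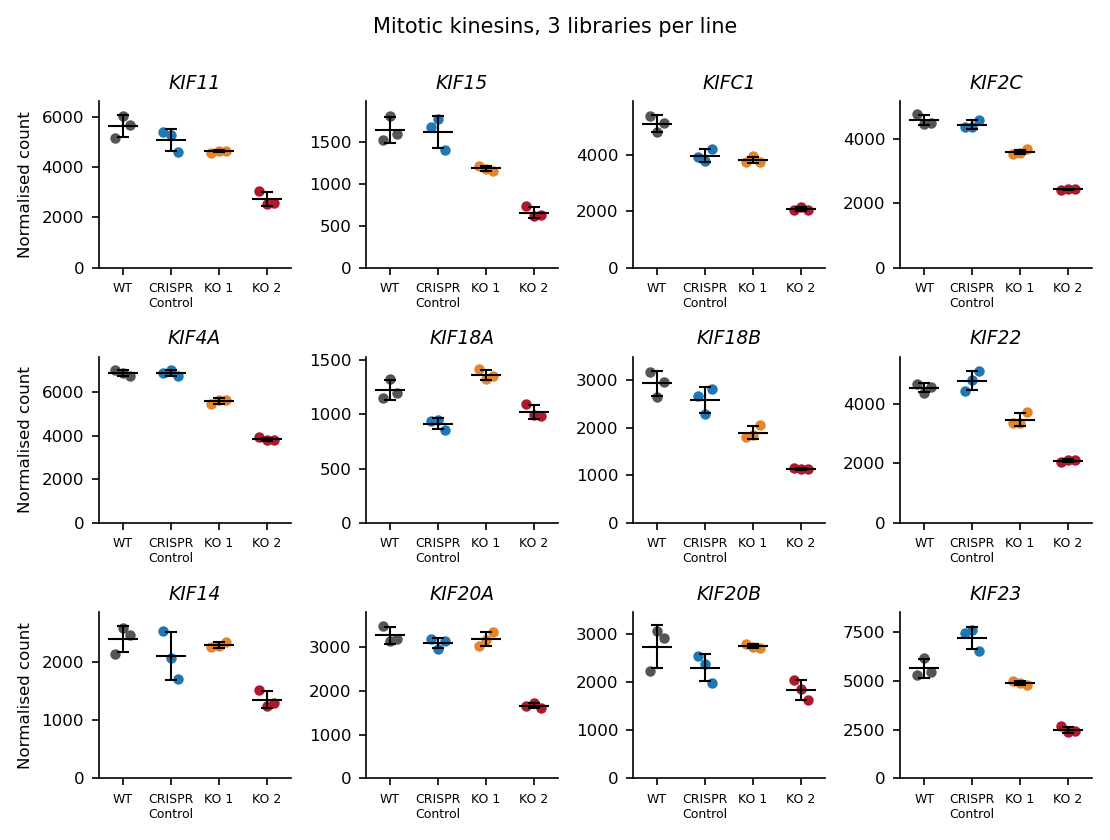
Normalised counts (y axes, from 0) of the 12 mitotic kinesins in the 4 lines (x axes); points are the 3 libraries of a line, and the bar and whiskers are their mean and SD. In every panel the KO 2 points lie below the KO 1 points, and in KIF18A the KO 1 points reach the top of the panel.

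Spindle assembly was represented by KIF11, KIF15 and KIFC1. KIF11 (Eg5), the kinesin-5 that slides spindle microtubules apart and so separates the poles, gave 5151, 6016 and 5679 normalised counts in WT and 5388, 5269 and 4581 in CRISPR Control. It gave 4571, 4649 and 4628 in KO 1, and 3047, 2537 and 2562 in KO 2. All KO 2 libraries lay below all others, whereas the KO 1 libraries lay below WT but overlapped CRISPR Control. KO 2 differed from WT by a log2 fold change of -1.05 (SE 0.08, adjusted p 5.23e-09) and KO 1 by -0.28 (SE 0.08, adjusted p 0.0143), and the KO 1 value did not pass without WT replicate 2 (-0.23, adjusted p 0.0732) or without WT replicate 3 (-0.27, adjusted p 0.0503).

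KIF15, a kinesin-12 that can keep a spindle bipolar when KIF11 is weak, gave 1520, 1813 and 1591 in WT and 1680, 1777 and 1408 in CRISPR Control. It gave 1216, 1176 and 1159 in KO 1, and 737, 611 and 623 in KO 2. Lines fell into 3 levels, the competent lines above KO 1 and KO 1 above KO 2, without overlap. In KO 2 it stood at 40.0% of WT (log2 fold change -1.32, SE 0.10, adjusted p 1.97e-09). It shares its strand with TMEM42, which lies inside its span.

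KIFC1 (HSET), a kinesin-14 that moves toward minus ends, focuses spindle poles and clusters extra centrosomes, had the highest level per kb of exon among the mitotic kinesins in WT, at 1684 normalised counts per kb, beside 271 for KIF18A, the lowest. The length used is the union of all annotated exons (3030 bases for KIFC1, 7169 for KIF22), so this ranking depends on the annotation. The normalised counts of KIFC1 were 5390, 4804 and 5115 in WT but 3929, 3774 and 4221 in CRISPR Control. The latter overlapped KO 1 (3746, 3955 and 3756). KO 2 was far below, at 2025, 2163 and 2039. Against WT the log2 fold change was -0.36 (adjusted p 0.000254) in CRISPR Control, -0.42 (adjusted p 0.000111) in KO 1 and -1.30 (adjusted p 1.79e-11) in KO 2. KO 1 and CRISPR Control differed by -0.06 (95% interval -0.20 to 0.09, adjusted p 0.494).

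Chromosome movement and attachment was represented by KIF2C, KIF4A, KIF22, KIF18B and KIF18A. KIF2C (MCAK), which depolymerizes microtubules and frees wrongly attached kinetochores, showed little scatter within groups. It gave 4780, 4491 and 4522 in WT, 4387, 4379 and 4618 in CRISPR Control, 3554, 3586 and 3693 in KO 1, and 2434, 2447 and 2439 in KO 2. WT and CRISPR Control overlapped and both clones lay apart, KO 1 by -0.35 (SE 0.06, adjusted p 0.000224) and KO 2 by -0.91 (SE 0.06, adjusted p 5.11e-10) on the log2 scale against WT.

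KIF4A, a chromokinesin that works with PRC1 to limit the length of midzone microtubules, ran the same way. WT gave a mean of 6865 ± 145, CRISPR Control 6876 ± 137, KO 1 5568 ± 127 and KO 2 3833 ± 73.0 (SD, n = 3). The 2 competent lines differed by 0.00 on the log2 scale (adjusted p 0.976), and KO 2 held 55.8% of WT (adjusted p 1.03e-09). KIF4A shares sequence with its retrocopy KIF4B and overlaps PDZD11 on the opposite strand, so a part of these reads could belong elsewhere.

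KIF22 (Kid), which pushes chromosome arms toward the spindle equator, gave 4672, 4376 and 4569 in WT, 4439, 4815 and 5098 in CRISPR Control, 3348, 3352 and 3712 in KO 1, and 2049, 2105 and 2128 in KO 2. Both clones lay below the competent lines without overlap. The log2 fold change against WT was -0.39 (adjusted p 0.00027) in KO 1 and -1.12 (adjusted p 1.98e-10) in KO 2.

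The kinesin-8 genes KIF18A and KIF18B parted. KIF18B, which trims astral microtubules together with KIF2C, was the mitotic kinesin with the lowest log2 fold change in both clones. It gave 3169, 2653 and 2965 in WT, 2662, 2281 and 2810 in CRISPR Control, 1803, 1846 and 2046 in KO 1, and 1157, 1130 and 1125 in KO 2. On the log2 scale KO 1 differed from WT by -0.62 (SE 0.09, adjusted p 1.64e-05) and KO 2 by -1.36 (SE 0.09, adjusted p 2.33e-10).

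KIF18A, which dampens the oscillation of chromosomes at the metaphase plate, was the exception among the 12. It gave 1148, 1330 and 1193 in WT, 941, 946 and 855 in CRISPR Control, 1417, 1323 and 1359 in KO 1, and 1096, 991 and 986 in KO 2. CRISPR Control, not KO 2, was lowest, and KO 1 overlapped WT at its top. KO 1 was higher than CRISPR Control by 0.58 (SE 0.08, adjusted p 5.71e-06), whereas KO 1 and WT differed by 0.16 (95% interval -0.01 to 0.33, adjusted p 0.138).

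Over deficient against competent lines, KIF18A was the 1 mitotic kinesin that was higher (0.16, SE 0.06, adjusted p 0.0197). This small difference did not pass without WT replicate 1 (0.14, adjusted p 0.0534), KO 1 replicate 1 (0.15, adjusted p 0.0509) or KO 2 replicate 1 (0.14, adjusted p 0.0531). KIF18A was lower in KO 2 than in WT by -0.26 (adjusted p 0.0133), which scaling to equal library totals changed to -0.16 (adjusted p 0.131), and it was not past the threshold without WT replicate 2 (-0.19, adjusted p 0.0793) or KO 2 replicate 2 (-0.23, adjusted p 0.0539). Against CRISPR Control, KO 2 gave 0.16 (95% interval -0.01 to 0.34, adjusted p 0.0858), and under equal library totals 0.28 (adjusted p 0.00928). Per kb of exon, KIF18A made up 30.4% of the kinesin-8 transcripts of WT and 27.0% of those of CRISPR Control, against 42.9% (KO 1) and 48.4% (KO 2).

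Cytokinesis was represented by KIF23, KIF20A, KIF20B and KIF14. KIF20A (MKLP2), which carries the chromosomal passenger complex to the midzone, gave 3497, 3152 and 3184 in WT, 3189, 2969 and 3143 in CRISPR Control, and 3039, 3157 and 3352 in KO 1. Only KO 2 stood apart, at 1663, 1721 and 1614. KO 1 differed from WT by -0.04 (95% interval -0.19 to 0.10, adjusted p 0.682), and KO 2 by -0.97 (SE 0.07, adjusted p 1.1e-09). KIF20A overlaps CDC23 and BRD8 on the opposite strand.

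KIF14, which recruits citron kinase to the midbody, ran alike, with 2145, 2588 and 2466 in WT, 2537, 2064 and 1712 in CRISPR Control, 2258, 2273 and 2349 in KO 1, and 1518, 1240 and 1293 in KO 2. Libraries of CRISPR Control were spread widely, with replicates 2 and 3 below all WT and KO 1 libraries. CRISPR Control did not pass the threshold against WT, but was lower without its replicate 1 (-0.35, adjusted p 0.00745). KO 2 was lower than WT by a log2 fold change of -0.83 (SE 0.11, adjusted p 5.69e-06), and KO 1 differed by -0.06 (95% interval -0.30 to 0.18, adjusted p 0.719).

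KIF20B, a relative of KIF20A that acts late in cytokinesis, changed least in KO 2 after KIF18A. It gave 2231, 3067 and 2919 in WT, 2538, 2383 and 1985 in CRISPR Control, 2793, 2727 and 2720 in KO 1, and 2041, 1857 and 1623 in KO 2. WT replicate 1 lay below all KO 1 libraries and CRISPR Control replicate 3 lay within KO 2. KO 2 was lower than WT by -0.57 (SE 0.11, adjusted p 0.000323), and the difference of deficient from competent lines was -0.15 (95% interval -0.32 to 0.02, adjusted p 0.102). The latter passed without WT replicate 1 (-0.22, adjusted p 0.0111) and without CRISPR Control replicate 3 (-0.20, adjusted p 0.0276). KIF20B was also called higher in KO 1 than in CRISPR Control at the edge of the threshold (0.26, adjusted p 0.0498), and lower in KO 2 than in CRISPR Control (-0.32, adjusted p 0.0172). The first was not past the threshold in 13 alternatives, leaving aside a minimum log2 fold change of 0.5, among them without CRISPR Control replicate 3 (0.16, adjusted p 0.242), and the second in 6, among them equal library totals (-0.21, adjusted p 0.145), without CRISPR Control replicate 1 (-0.25, adjusted p 0.0736) and without KO 2 replicate 3 (-0.23, adjusted p 0.098).

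KIF23 (MKLP1), which forms the centralspindlin complex with RACGAP1, was highest in CRISPR Control. It gave 5294, 6186 and 5430 in WT, 7441, 7599 and 6536 in CRISPR Control, 4975, 4902 and 4776 in KO 1, and 2657, 2375 and 2443 in KO 2. All 4 lines were free of overlap. CRISPR Control lay above WT by 0.35 (SE 0.08, adjusted p 0.000888) and KO 2 below it by -1.18 (SE 0.08, adjusted p 3.41e-10). KO 1 lay below WT by -0.20 (adjusted p 0.0486), which was not past the threshold in 11 alternatives, leaving that minimum aside, among them without WT replicate 2 (-0.13, adjusted p 0.232) and without each KO 1 library. KIF23 had the lowest log2 fold change of KO 2 against KO 1 among the 12 (-0.97, adjusted p 1.26e-08).

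**Figure D3:**
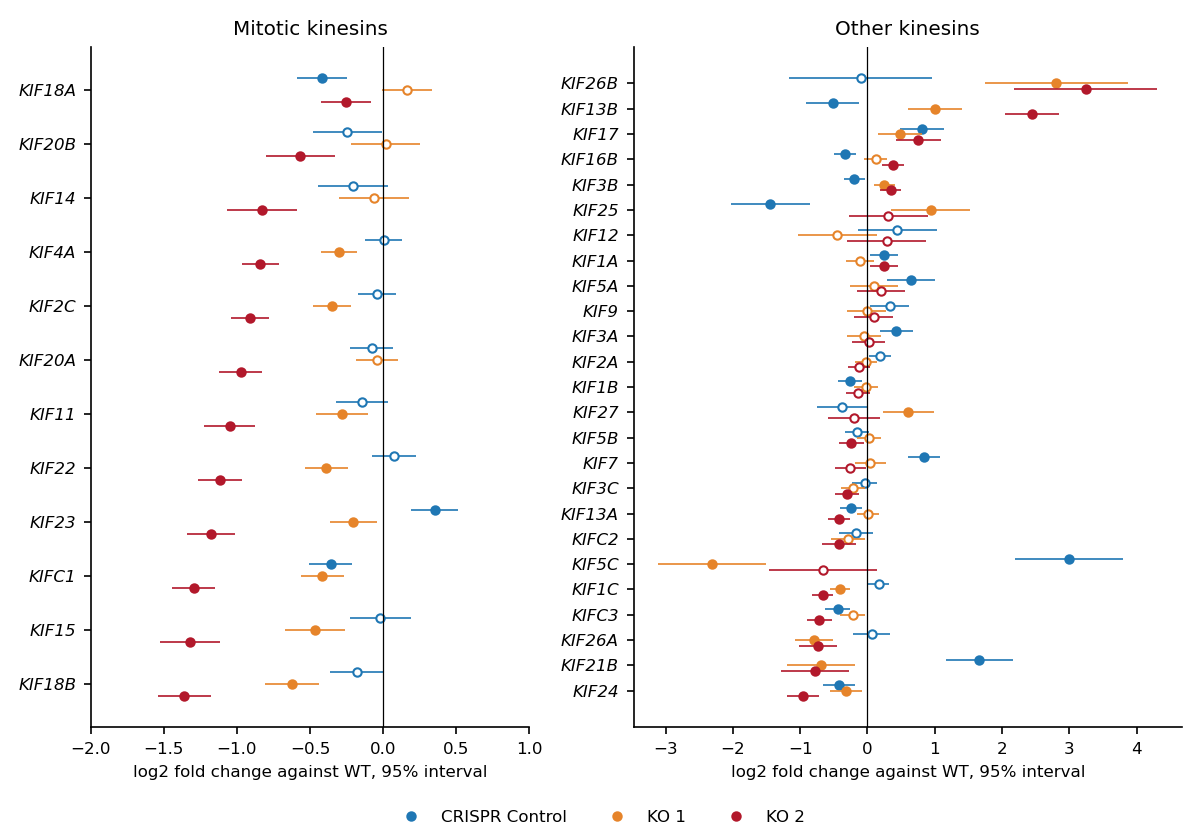
Log2 fold changes against WT (x axes) of the 12 mitotic (left) and 25 tested other kinesins (right; the x scales differ) in CRISPR Control, KO 1 and KO 2; points are limma estimates, lines their 95% intervals, and filled points have an adjusted p under 0.05. On the left all KO 2 points lie below 0, from -1.36 in KIF18B to -0.26 in KIF18A, and on the right each line has points on both sides.

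The other kinesins showed no common direction. Of the 25 tested, 9 were lower and 6 higher in KO 2 than in WT (median -0.15), and 5 were lower and 6 higher in KO 1 (median -0.02). CRISPR Control differed from WT in as many, with 8 lower and 7 higher (median -0.04). The split was 11 lower and 9 higher in KO 1 against CRISPR Control, 11 and 5 in KO 2 against CRISPR Control, 7 and 5 in KO 2 against KO 1, and 11 and 6 in deficient against competent lines. The percentages of all genes given above for each of these comparisons are the background of these counts. All 6 deficient libraries lay below all competent libraries in 3 of the 25 (KIF1C, KIF21B and KIF26A), beside 12.4% of all genes. They lay above in 4 (KIF3B, KIF13B, KIF16B and KIF26B), beside 12.3%. Both shares of the 25 were near those of all genes. KIF26B reached the minimum mean only through the clones, where it was high.

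Conventional kinesin, kinesin-1, is the main carrier of mitochondria and vesicles. KIF5B, its ubiquitous heavy chain, gave over 98% of the kinesin-1 transcripts per kb in each line, averaging 11357 ± 1350 (WT), 10193 ± 802 (CRISPR Control), 11441 ± 172 (KO 1) and 9601 ± 774 (KO 2) normalised counts (SD, n = 3). It was lower in KO 2 than in WT by -0.24 (adjusted p 0.0256), which was not past the threshold in 8 alternatives, leaving aside the minimum log2 fold change, among them equal library totals (-0.14, adjusted p 0.203) and without WT replicate 2 (-0.15, adjusted p 0.16). KIF5C, a heavy chain best known from neurons, was a low transcript that marked CRISPR Control. It gave 26.0, 18.2 and 32.4 in WT, 189, 202 and 230 in CRISPR Control, 2.16, 9.0 and 3.53 in KO 1, and 23.2, 9.64 and 16.1 in KO 2.

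CRISPR Control lay above WT in KIF5C by 3.00 (SE 0.38, adjusted p 2.71e-06), and KO 1 lay below WT by -2.31 (SE 0.38, adjusted p 0.000109), a value that a pseudocount of 10 in place of 1 changed to -1.26. The low value of deficient against competent lines (-2.98, adjusted p 1.41e-08) drew in part on the high CRISPR Control libraries. KO 2 and WT differed by -0.66 (95% interval -1.46 to 0.15, adjusted p 0.155), and with quantile normalization by -1.03 (adjusted p 0.0217). KIF5C overlaps KIF5C-AS1 on the opposite strand.

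**Figure D4:**
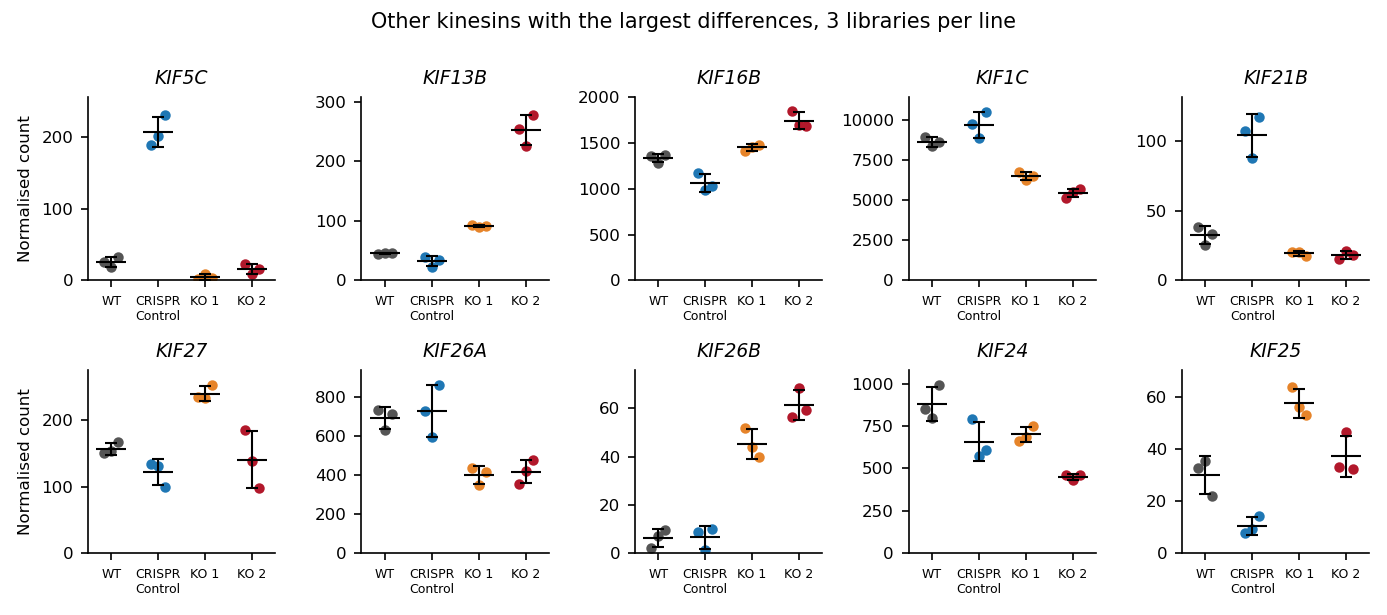
Normalised counts (y axes, from 0) of the 10 other kinesins with the largest differences in the 4 lines (x axes), ordered by family; points are the 3 libraries of a line, and the bar and whiskers are their mean and SD. CRISPR Control stands above the other lines in KIF5C and KIF21B, and KO 2 stands highest in KIF13B and KIF26B.

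In the kinesin-3 family, whose members move vesicles and endosomes, KIF13B and KIF16B were higher and KIF1C was lower in the deficient lines. KIF13B (GAKIN), which carries membrane and polarity proteins, gave 44.1, 45.5 and 46.7 in WT, 38.9, 22.5 and 35.2 in CRISPR Control, 94.0, 90.02 and 91.9 in KO 1, and 254, 226 and 277 in KO 2. Both clones lay above the competent lines and apart from each other, at log2 fold changes against WT of 1.00 (SE 0.19, adjusted p 0.000432) and 2.45 (SE 0.19, adjusted p 3.53e-09). CRISPR Control was lower than WT by -0.52 (adjusted p 0.0284), or by -0.29 (adjusted p 0.169) without its replicate 2. KIF13B was not past the threshold in that comparison either without WT replicate 2 (-0.52, adjusted p 0.0578), without WT replicate 3 (-0.50, adjusted p 0.071) or by DESeq2 on recovered reads (-0.47, adjusted p 0.0836).

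KIF16B, which moves early endosomes, rose by 0.38 (SE 0.08, adjusted p 0.000448) in KO 2, from 1336 ± 47.0 in WT to 1744 ± 89.2 (SD, n = 3). In KO 1 it gave 1451 ± 35.7, a difference from WT of 0.12 (95% interval -0.05 to 0.28, adjusted p 0.261). CRISPR Control, at 1064 ± 98.8 (SD, n = 3), lay below WT by -0.33 (adjusted p 0.00172), so the difference of deficient from competent lines (0.42, adjusted p 2.56e-06) drew in part on low control libraries. KIF1C, a fast motor for dense-core vesicles and integrins, gave 8988, 8392 and 8626 in WT, 9746, 8907 and 10550 in CRISPR Control, 6804, 6293 and 6523 in KO 1, and 5174, 5510 and 5685 in KO 2. Both clones lay below the competent lines, with log2 fold changes against WT of -0.41 (adjusted p 0.000204) and -0.67 (adjusted p 2.65e-07). The step from KO 1 to KO 2 (-0.26, adjusted p 0.00722) did not pass with equal library totals (-0.16, adjusted p 0.0717) or quantile normalization (-0.16, adjusted p 0.0558). KIF1A, the kinesin of synaptic vesicle precursors, was the kinesin with the most counts in every line, at 16701 ± 1169 in WT and 19802 ± 1180 in KO 2 (SD, n = 3). Its log2 fold change of 0.25 (adjusted p 0.0428) was matched by CRISPR Control, which averaged 19992 ± 3381 (SD, n = 3) and lay above WT by 0.25 (adjusted p 0.0432). Leaving that minimum aside, the KO 2 value was not past the threshold in 9 alternatives and the CRISPR Control value in 13, for KO 2 among them without WT replicate 2 (0.19, adjusted p 0.169) and without KO 2 replicate 2 (0.22, adjusted p 0.131).

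Heterotrimeric kinesin-2, which drives transport into cilia, showed its motor KIF3B higher in both clones, by 0.25 (adjusted p 0.0142) in KO 1 and 0.35 (adjusted p 0.000672) in KO 2. The KO 1 value did not pass without WT replicate 1 (0.22, adjusted p 0.0557) or KO 1 replicate 1 (0.23, adjusted p 0.0541). CRISPR Control was lower than WT in KIF3B by -0.19 (adjusted p 0.036), or by -0.13 (adjusted p 0.147) without its replicate 2. The partner KIF3A differed from WT by -0.05 (adjusted p 0.772) in KO 1 and 0.02 (adjusted p 0.917) in KO 2. The edited control exceeded WT in KIF3A by 0.43 (adjusted p 0.0048). Relative to that control, KIF3A differed by -0.48 in KO 1 (adjusted p 0.00155) and -0.41 in KO 2 (adjusted p 0.00448). Its value in deficient against competent lines was -0.23 (adjusted p 0.0195), or -0.17 (adjusted p 0.0689) without WT replicate 2. KIF3C was lower in KO 2 by -0.30 (adjusted p 0.00648), but by -0.21 (adjusted p 0.0537) with equal library totals. KIF26A and KIF26B, kinesin-11 proteins that have lost ATPase activity and act in signalling, went opposite ways. KIF26A gave 730, 629 and 713 in WT and 729, 595 and 858 in CRISPR Control, against 435, 347 and 413 in KO 1 and 356, 419 and 476 in KO 2. KIF26B gave 2.26, 7.27 and 9.53 in WT and 8.64, 1.19 and 9.89 in CRISPR Control, against 51.9, 43.9 and 39.8 in KO 1 and 56.3, 68.4 and 59.5 in KO 2.

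In neither gene did the clones differ past the threshold, with 0.06 (adjusted p 0.746) for KIF26A and 0.44 (adjusted p 0.53) for KIF26B. Against WT, KIF26A was lower by -0.80 (adjusted p 0.000123) in KO 1 and -0.73 (adjusted p 0.000134) in KO 2. KIF26B was higher by 2.80 (adjusted p 0.000259) and 3.24 (adjusted p 2.6e-05). With a pseudocount of 10, the KIF26B values became 1.78 and 2.15. KIF26B averaged 6.35 in WT and 6.57 in CRISPR Control, under the minimum mean of 10. It was tested only through the clones where it was high, so its p-values lend no further support. WT replicate 1 (2.26) and CRISPR Control replicate 2 (1.19) lay below the normalised value of 3 reads (3.40 and 3.56). KIF26B overlaps KIF26B-AS1, and KIF26A overlaps KIF26A-DT.

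KIF21B, KIF25, KIF27 and KIF24 completed the named genes. KIF21B, which limits microtubule growth, gave 38.5, 25.5 and 33.3 in WT, 107, 87.8 and 118 in CRISPR Control, 20.5, 20.3 and 17.7 in KO 1, and 15.7, 21.0 and 18.2 in KO 2. CRISPR Control lay above WT by 1.66 (adjusted p 1.12e-05) and both clones below WT, by -0.69 (adjusted p 0.0305) in KO 1 and -0.78 (adjusted p 0.00976) in KO 2. The KO 1 value was not past the threshold in 7 alternatives, among them without WT replicate 1 (-0.56, adjusted p 0.124), without WT replicate 3 (-0.66, adjusted p 0.0819) and without each KO 1 library.

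KIF25, a kinesin-14 gene, was low in all lines and lowest in CRISPR Control, at 10.5 ± 3.38 beside 30.1 ± 7.18 (WT), 57.7 ± 5.51 (KO 1) and 37.3 ± 7.96 (KO 2) (SD, n = 3). It was higher in KO 1 than in WT by 0.94 (adjusted p 0.013), but by 0.74 (adjusted p 0.0762) without WT replicate 3 and 0.87 (adjusted p 0.0537) without KO 1 replicate 1. KIF27, a relative of KIF7 with a role in motile cilia, gave 151, 154 and 168 in WT, a mean of 122 ± 19.2 in CRISPR Control (SD, n = 3), 234, 233 and 253 in KO 1, and 186, 139 and 98.9 in KO 2. KO 1 lay above all other libraries and was higher than WT by 0.61 (adjusted p 0.0138), or by 0.57 (adjusted p 0.0502) without KO 1 replicate 3. KO 2 was lower than KO 1 by -0.81 (adjusted p 0.00166).

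KIF24, a kinesin-13 that holds back cilium formation in cycling cells, was lower than WT in all 3 edited lines. It gave 849, 795 and 993 in WT, 792, 574 and 609 in CRISPR Control, 663, 685 and 753 in KO 1, and 461, 431 and 461 in KO 2. CRISPR Control lay below WT by -0.42 (adjusted p 0.00438), KO 1 by -0.32 (adjusted p 0.0347) and KO 2 by -0.96 (adjusted p 1.09e-06). KO 1 and CRISPR Control differed by 0.10 (95% interval -0.14 to 0.34, adjusted p 0.455). The KO 1 value did not pass without WT replicate 1 (-0.34, adjusted p 0.0597), WT replicate 3 (-0.23, adjusted p 0.183), KO 1 replicate 1 (-0.28, adjusted p 0.118) or KO 1 replicate 2 (-0.31, adjusted p 0.0937). KIF24 overlaps UBAP1 on the opposite strand.

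The genes that work with kinesins were described by 6 lists, whose counts stand beside 27.9% of all genes lower and 27.1% higher in KO 2 than in WT, and 17.5% lower and 18.0% higher in KO 1. The 22 tested mitotic partners are kinases, passenger proteins and spindle factors. Of them, 21 were lower and 0 higher in KO 2 than in WT (median -0.84). In KO 1, 6 were lower and 0 higher (median -0.12). CRISPR Control had 8 lower and 4 higher than WT (median -0.11). The background of its list counts is 26.3% of all genes lower and 27.2% higher. PLK1, the polo kinase that governs mitotic entry and cytokinesis, stood on average at 6304 in WT and 7466 in the edited control, at 4767 in KO 1 and at 2207 in KO 2. AURKB, the kinase of the passenger complex that KIF20A carries, had means of 3066, 2403, 2009 and 943 in the same order. Their log2 fold changes in KO 2 against WT were -1.51 (adjusted p 8.46e-12) and -1.70 (adjusted p 9.67e-12), larger falls than in any mitotic kinesin.

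Of 16 proliferation markers, 15 were lower in KO 2 than in WT (median -1.16) and 12 in KO 1 (median -0.53). In either clone 0 were higher. CRISPR Control had 4 lower and 3 higher (median -0.08). MCM5 and MCM6, subunits of the replicative helicase, were lower by -1.47 (adjusted p 1.05e-11) and -1.26 (adjusted p 6.6e-12) in KO 2. Of 18 regulators of G2/M genes, 14 were lower and 1 higher in KO 2 (median -0.49). In KO 1, 9 were lower and 1 higher (median -0.20). CRISPR Control had 5 lower and 5 higher (median 0.05). E2F1, an activator of cell cycle genes, was lower in KO 2 by -1.40 (adjusted p 2.01e-10) and in KO 1 by -0.94 (adjusted p 1.12e-07). The gene higher in both clones was CDKN1A, which encodes the cell cycle inhibitor p21. It stood on average at 1140 in WT and 1494 in the edited control, at 3420 in KO 1 and at 3283 in KO 2. Its log2 fold change was 1.58 (adjusted p 8.81e-12) in KO 1 and 1.52 (adjusted p 7.17e-12) in KO 2, and the clones differed by -0.06 (adjusted p 0.571), unlike the mitotic kinesins. Whether the level of CDKN1A has a part in that of the kinesins was not tested.

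Tubulins, the track of all kinesins, were lower in 10 and higher in 1 of 15 tested genes in KO 2 (median -0.54). In KO 1, 8 were lower and 1 higher (median -0.28). CRISPR Control had 4 lower and 3 higher (median -0.09). TUBA4A was lower by -0.54 (adjusted p 0.000533) in KO 2 but higher by 1.33 (adjusted p 1.28e-08) in CRISPR Control, and TUBG2, a gamma-tubulin, was higher by 0.31 (adjusted p 0.00788) in KO 2 and lower by -1.09 (adjusted p 8.76e-09) in CRISPR Control. Cytoplasmic dynein and dynactin, the motor complex of the opposite direction, split evenly in KO 2, with 6 of 25 lower and 6 higher (median 0.05). CRISPR Control also had 6 lower and 6 higher (median 0.07). In KO 1, 1 was lower and 8 higher (median 0.04). The KO 2 shares in each direction were close to those of all genes. The KO 1 shares were not, with 4% lower and 32% higher beside 17.5% and 18.0% of all genes. DYNLT3, a dynein light chain, averaged 761 in WT and 2249 in KO 2 (1.58, adjusted p 4.33e-09). NDE1, a dynein regulator, was lower in CRISPR Control than in WT by -0.98 (adjusted p 4.31e-07) and higher in KO 1 by 0.52 (adjusted p 0.000937).

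Kinesin light chains and adaptors, which link transport kinesins to cargo, also split, with 6 of 25 lower and 7 higher in KO 2 (median 0.10). In KO 1, 4 were lower and 4 higher (median -0.02). CRISPR Control had 7 lower and 12 higher (median 0.18). Its share of higher genes was 48%, beside 27.2% of all genes. MAP7, which recruits kinesin-1 to microtubules, had means of 323 (WT), 535 (KO 1) and 1770 (KO 2) and rose by 0.72 (adjusted p 6.38e-05) and 2.45 (adjusted p 2.37e-12), and gave 265 in CRISPR Control (-0.29, adjusted p 0.0412). HAP1, an adaptor between huntingtin and kinesin-1, had means of 397 (WT), 910 (KO 1) and 981 (KO 2) and rose by 1.20 (adjusted p 1.13e-08) and 1.31 (adjusted p 1.38e-09), and was also higher in CRISPR Control than in WT (mean 545, 0.46, adjusted p 0.000536).

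**Figure D5:**
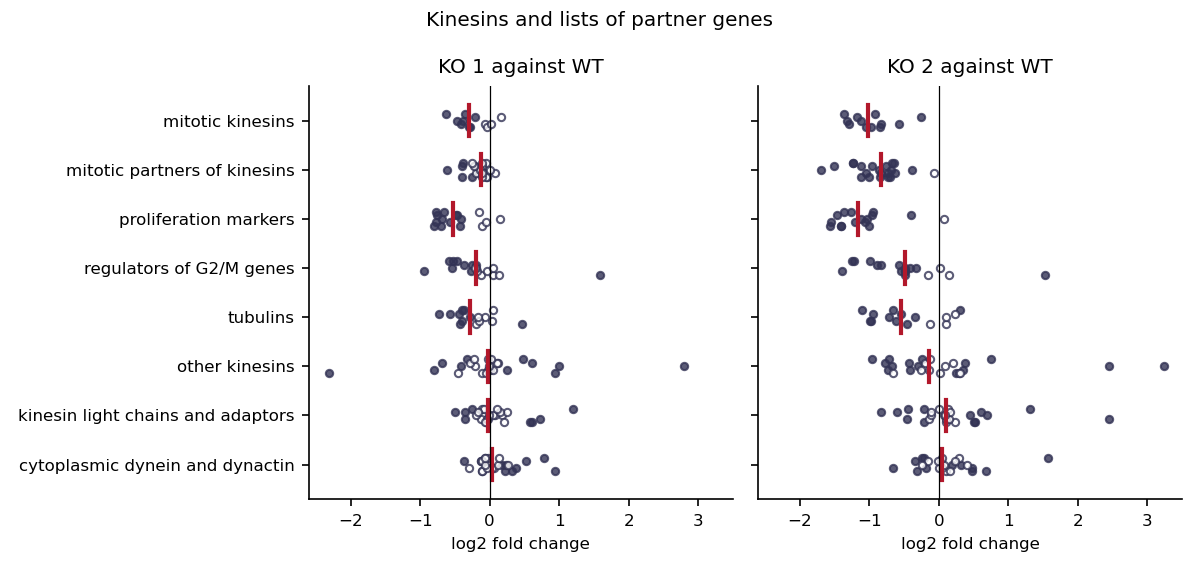
Log2 fold changes against WT (x axes) of the kinesins and of 6 lists of partner genes (rows) in KO 1 (left) and KO 2 (right); points are genes, filled where the adjusted p is under 0.05, and red bars are medians. In KO 2 the medians of the mitotic kinesins (-1.01), their partners (-0.84) and the proliferation markers (-1.16) are the lowest, and those of dynein (0.05) and adaptors (0.10) lie near 0.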

How the data were processed

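RNA of 12 libraries was sequenced in paired reads. Per the study's methods, the authors trimmed adapters with Cutadapt and used STAR for mapping (GRCh38), featureCounts for gene counts and DESeq2 for their scaling by size factors. The deposited values are thus a signal of scaled counts. The strand setting and annotation release were not given in the sources used here, so overlapping genes can share reads. Within a library, 100% of positive values were whole multiples of 1 step (tolerance 0.01 reads), and dividing by it returned the reads. Floors cover counting error only. The 4 columns of line means were not used, nor was 1 blank line.

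Groups and replicate numbers came from the sample titles. limma (3.58.1, R 4.3.3) was fitted on log2(normalised count + 1) for 15987 genes with a mean of at least 10, with 1 coefficient per line over 12 libraries and eBayes with a trend, two-sided, adjusted by Benjamini-Hochberg (threshold 0.05). The log2 fold changes understate low genes. The script was tested on simulated data. edgeR (4.0.16) and DESeq2 (1.42.0) on recovered reads were alternatives. Members and gene lists were chosen with earlier results of these data known. Named were all mitotic kinesins, the 4 highest and 4 lowest other kinesins in deficient against competent lines, the 2 highest and 2 lowest in CRISPR Control against WT and in KO 2 against KO 1, the 2 largest changes of each partner list, and TIMP1. KIF1A, KIF3A, KIF3B, KIF3C and KIF5B were added after their values were seen. Coordinates and overlaps are from GENCODE (GRCh38), promoters from RefSeq (GRCh38.p14). Values per kb divide by the union of all annotated exons of a gene, so rankings and family shares per kb depend on the annotation.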

Additional observations from a re-analysis of the deposited data

Results flagged for a closer look

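Flagged were members whose difference from WT was not the same in the KO clones, tested directly as KO 2 minus KO 1 by limma (adjusted p under 0.05 over all genes). All 12 mitotic kinesins were among them, each lower in KO 2, beside 20.1% of all tested genes lower and 18.1% higher. The log2 differences were -0.77 for KIF11, -0.77 for KIF14, -0.85 for KIF15, -0.42 for KIF18A, -0.74 for KIF18B and -0.93 for KIF20A. They were -0.58 for KIF20B, -0.73 for KIF22, -0.97 for KIF23, -0.57 for KIF2C, -0.54 for KIF4A and -0.88 for KIFC1.

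Of the 25 other kinesins tested, 7 were lower in KO 2 than in KO 1 and 5 higher, beside 20.1% and 18.1% of all tested genes. The 7 were lower by -0.26 for KIF1C, -0.26 for KIF5B, -0.30 for KIF7, -0.42 for KIF13A, -0.49 for KIFC3, -0.63 for KIF24 and -0.81 for KIF27. The 5 higher in KO 2 were KIF5C by 1.65, KIF13B by 1.44, KIF12 by 0.73, KIF1A by 0.36 and KIF16B by 0.26. KIF5C was near the floor in KO 1 (2.16, 9.0 and 3.53), and a pseudocount of 10 in place of 1 gave 0.82 (adjusted p 0.00622). The differences of KIF5B, KIF7 and KIF12 were not past the threshold in 9, 10 and 13 alternatives, leaving aside a minimum log2 fold change of 0.5, among them without KO 2 replicate 2 (-0.22, adjusted p 0.103 for KIF5B; -0.26, adjusted p 0.145 for KIF7; 0.66, adjusted p 0.133 for KIF12). For KIF16B the difference was not past the threshold without KO 1 replicate 1 (0.24, adjusted p 0.0517) or without KO 2 replicate 1 (0.22, adjusted p 0.0582). The clones carry separate edits and histories, which cannot be told apart here.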

How the results depend on the processing

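The counts of this paragraph's first values cover the 22 kinesins named by the fixed rule, without KIF1A, KIF3A, KIF3B, KIF3C and KIF5B, which were added later. Of 121 differences of these 22 kinesins past the threshold, none changed sign in the 25 alternatives. They gave 2988 values, of which 2888 stayed past the threshold and 100 did not, 33 of these because a minimum absolute log2 fold change of 0.5 was asked for. With that minimum the mitotic counts fell from 8 to 1 in KO 1 against WT, from 3 to 0 in CRISPR Control against WT and from 8 to 2 in KO 1 against CRISPR Control. In deficient against competent lines it left out KIF14 (-0.34), KIF18A (0.16) and KIF20A (-0.47). For KO 2 it left out KIF18A against WT (-0.26) and KO 1 (-0.42), and KIF20B against CRISPR Control (-0.32). The counts of other kinesins fell to 8 in deficient against competent lines, 7 in KO 1 against WT, 8 in KO 2 against WT, 7 in CRISPR Control against WT, 11 in KO 1 against CRISPR Control and 5 in KO 2 against KO 1.

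Leaving out single libraries gave 11 to 12 mitotic kinesins in KO 2 against WT, 12 to 12 in KO 2 against KO 1, 10 to 11 in KO 2 against CRISPR Control, 6 to 8 in KO 1 against WT, 7 to 9 in KO 1 against CRISPR Control and 10 to 12 in deficient against competent lines. CRISPR Control against WT gave 3 to 5, with 5 without CRISPR Control replicate 1 (KIF14 -0.35 and KIF20B -0.32 added). Other kinesins ran from 6 to 14 in KO 1 against WT (7 without WT replicate 1, 6 without KO 1 replicate 1), 13 to 16 in KO 2 against WT, 12 to 16 in CRISPR Control against WT, 17 to 20 in KO 1 against CRISPR Control, 14 to 18 in KO 2 against CRISPR Control, 9 to 12 in KO 2 against KO 1 and 16 to 18 in deficient against competent lines.

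Among the same 22 kinesins, 23 differences that had not passed did so in 13 values, and changed sign 12 times. With single libraries left out, KIF20A ran from -0.080 to 0.0054 in KO 1 against WT and from -0.00052 to 0.070 in KO 1 against CRISPR Control, KIF15 from -0.090 to 0.078 and KIF4A from -0.013 to 0.017 in CRISPR Control against WT, and KIF27 from -0.42 to 0.029 in KO 2 against WT. KIF20B in KO 1 against WT ran from -0.12 (without WT replicate 1) to 0.11 and gave -0.0044 by edgeR with TMM. KIF4A in CRISPR Control against WT gave -0.017 with equal library totals and -0.017 by edgeR with TMM, and KIF25 in KO 2 against WT -0.0030 with quantile normalization. The causes were not tested.

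Replicate numbers were shared by the lines. Same-numbered libraries of different lines deviated together with r of -0.13 to 0.16 (2 of 18 pairs above 0.1). Libraries with different numbers gave -0.19 to 0.13 (3 of 36 pairs above 0.1). These values cannot show whether a number stands for a shared culture or batch, and the main fit did not pair samples. With the replicate block all 121 differences stayed past the threshold, and the mitotic counts were 11, 8, 12, 3, 8, 11 and 12 in the order deficient against competent, KO 1, KO 2 and CRISPR Control against WT, KO 1 and KO 2 against CRISPR Control, and KO 2 against KO 1. Equal library totals shifted the median of all genes in KO 2 against CRISPR Control to 0.11 and the share of higher genes among those past the threshold from 49.3% to 59.9% in KO 2 against WT and from 47.4% to 65.5% in KO 2 against KO 1. Size factors remove a shift common to most genes. Genes under 10 counts could not be compared at this depth.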
